A study of Mus musculus with 9 samples.

Results

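The genes described here are Trp53, which encodes the transcription factor p53, and 9 genes of its core network, namely Cdkn1a, Mdm2, Ccng1, Bbc3, Bax, Sesn2, Phlda3, Zmat3 and Cdkn2a. They were chosen by name as the centre of the p53 pathway. The rule uses no measured value, but it was set with earlier results of these data known. They are 10 of the 36410 rows of the count table, and all 10 passed the filter on low counts that left 12678 genes for the tests. Footprints of translating ribosomes were counted in immortalized mouse striatal cells, with 3 libraries for each of 3 lines that differ in the length of the glutamine tract encoded by the Huntington disease gene Htt. Control cells (STHdhQ7/Q7) carry 7 glutamines in both alleles, HD-het cells (STHdhQ7/Q111) carry 7 in 1 allele and 111 in the other, and HD-homo cells (STHdhQ111/Q111) carry 111 in both. All libraries came from cells of C57/BL6 background in which ribosomes were halted with cycloheximide for 10 min before the 80S monosomes were collected, and from fragments of 26 to 32 nt. Each genotype is 1 line, so genotype and line cannot be told apart, and the labels do not say whether the 3 libraries of a line came from separate cultures, so the p-values measure the spread between these libraries.

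p53 is a sequence-specific transcription factor that is kept scarce by the ubiquitin ligase Mdm2 and is stabilized by DNA damage, oncogene activity and other stress. Its targets stop the cell cycle, repair DNA, limit growth signalling or start apoptosis, and Mdm2 is itself a target, which closes a negative feedback loop. Striatal cell lines of this kind were immortalized with a temperature-sensitive large T antigen, a viral protein that binds p53 and the retinoblastoma protein, so the network is read here in cells in which p53 may be held in such a complex. In Huntington disease p53 has been studied as a partner of mutant huntingtin and as a regulator of neuronal death. A footprint count follows both the amount of an mRNA and the number of ribosomes on it, and it reports neither the stability nor the activity of the protein.

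The libraries held between 22504543 and 41888701 counts, and values are given as CPM, which are counts scaled to a total of 1e6 with TMM library factors. Htt footprints averaged 28.7 CPM for control, 20.3 for HD-het and 6.62 for HD-homo cells. Counts per gene do not separate the alleles of Htt, so these values do not check the genotype labels. Of 13 markers of striatal projection neurons, 2 reached 1 CPM in every control and every HD-het library and 3 in every HD-homo library, and the dopamine receptor genes Drd1 and Drd2 had no counts in any library. Precursor markers were present, with 6, 6 and 5 of 8 at 1 CPM or more in every library of control, HD-het and HD-homo cells and a summed level of 9595 to 9859, 8991 to 9819 and 6016 to 6547 CPM, while Gsx2 had 3 counts or fewer in every library. The summed level of 6 mesenchymal markers was 6403 to 9160 CPM for control, 25453 to 27743 for HD-het and 5566 to 7075 for HD-homo cells, with 5 of the 6 at 1 CPM or more in every library and Thy1 at 3 counts or fewer. The part of this difference in the results for HD-het cells was not tested. Markers of microglia, endothelium and glia summed to at most 9.22, 2.17 and 14.3 CPM in any library. In whole cultures a smaller number of cells that translate a gene and fewer footprints per cell cannot be told apart.

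p53 binds DNA as a tetramer at pairs of half-sites of 10 letters each, separated by a spacer of up to 13 bases. The half-site consensus was searched in RefSeq promoter windows of build GRCm38.p6 that run from 250 bases before to 50 bases after a gene's start. The consensus reads the same on both strands, so each match counts for both. Windows were found for 9 of the 10 genes, 13 windows in all. Bbc3, Cdkn1a and Cdkn2a had more than 1 window, and some windows of Bbc3 overlapped. Of the 13 windows, 5 held at least 1 half-site match, a share of 38.5% against 8.36% of all 32841 windows. The genes were chosen for their place in the p53 pathway, so this share is a description and not a test. Of the 2 Cdkn1a windows, the upstream one held 2 matches close enough to form a full site by this rule. They began 73 and 51 bases before the start used for that window, which is not the start used for the other. The 10 letters directly after the second match differ from the consensus in 1 letter, the first, so the search did not count them. A full site was found in 24 of all windows, or 0.0731%. A match is a description of letters and not a bound site, and the best studied sites of Mdm2 lie outside its window, in the first intron. The stretches with a match are shown to set the matched letters, in capitals, beside the genes of the feedback loop, and each reads 5′ to 3′ in the direction of transcription.
Cdkn1a (chr17:29090881-29090962, plus strand): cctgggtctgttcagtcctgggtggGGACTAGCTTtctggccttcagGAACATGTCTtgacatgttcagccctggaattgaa
Mdm2 (chr10:117710910-117710969, minus strand): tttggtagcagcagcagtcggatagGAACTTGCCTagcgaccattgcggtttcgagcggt
Ccng1 (chr11:40755437-40755496, minus strand): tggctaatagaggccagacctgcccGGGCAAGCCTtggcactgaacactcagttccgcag
Bax (chr7:45467065-45467124, minus strand): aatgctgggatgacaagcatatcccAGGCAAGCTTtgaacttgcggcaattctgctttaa
Trp53 (chr11:69580259-69580318, plus strand): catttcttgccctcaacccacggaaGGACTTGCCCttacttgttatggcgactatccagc
The single matches of Mdm2, Ccng1, Bax and Trp53 began 186, 185, 201 and 75 bases before the start. The windows of Bbc3, Sesn2, Phlda3 and Cdkn2a and the other window of Cdkn1a held no match, which says only that these letters are not there.

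Within each line the 10 genes spanned a wide range of footprint density, compared here as CPM per kb of coding sequence so that gene length is set aside. Cdkn2a, the locus of the cell cycle inhibitor p16Ink4a and the Mdm2 inhibitor p19Arf, stood first in every line with 741 ± 11.5 CPM per kb for control, 702 ± 32.4 for HD-het and 646 ± 127 for HD-homo cells (SD, n = 3), which placed it above 97.8%, 98.1% and 97.4% of all genes tested. The next places in control cells were taken by Bax with 204 ± 17.3, Trp53 with 194 ± 14.5 and Phlda3 with 181 ± 21.6 CPM per kb, and these 3 neighbours lay within one another's spread. In HD-het cells Phlda3 with 159.9 ± 14.7, Bax with 153 ± 16.9 and Cdkn1a with 138 ± 37.8 CPM per kb overlapped in the same way. By its mean, Trp53 came after them with 104 ± 3.78, but it lay within the range of Cdkn1a (94.8 to 162). In HD-homo cells Trp53 was second with 183 ± 3.72 CPM per kb, above the range of Bax at 153 ± 12.5. Ccng1, Mdm2 and Zmat3 took the next places before the last, in this order, in all 3 lines. The lowest densities were those of Sesn2, at 4.45, 8.96 and 6.47 CPM per kb, and of Bbc3, at 4.40, 3.94 and 1.80, and both genes lay below the middle of all genes tested.

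**Figure D1:**
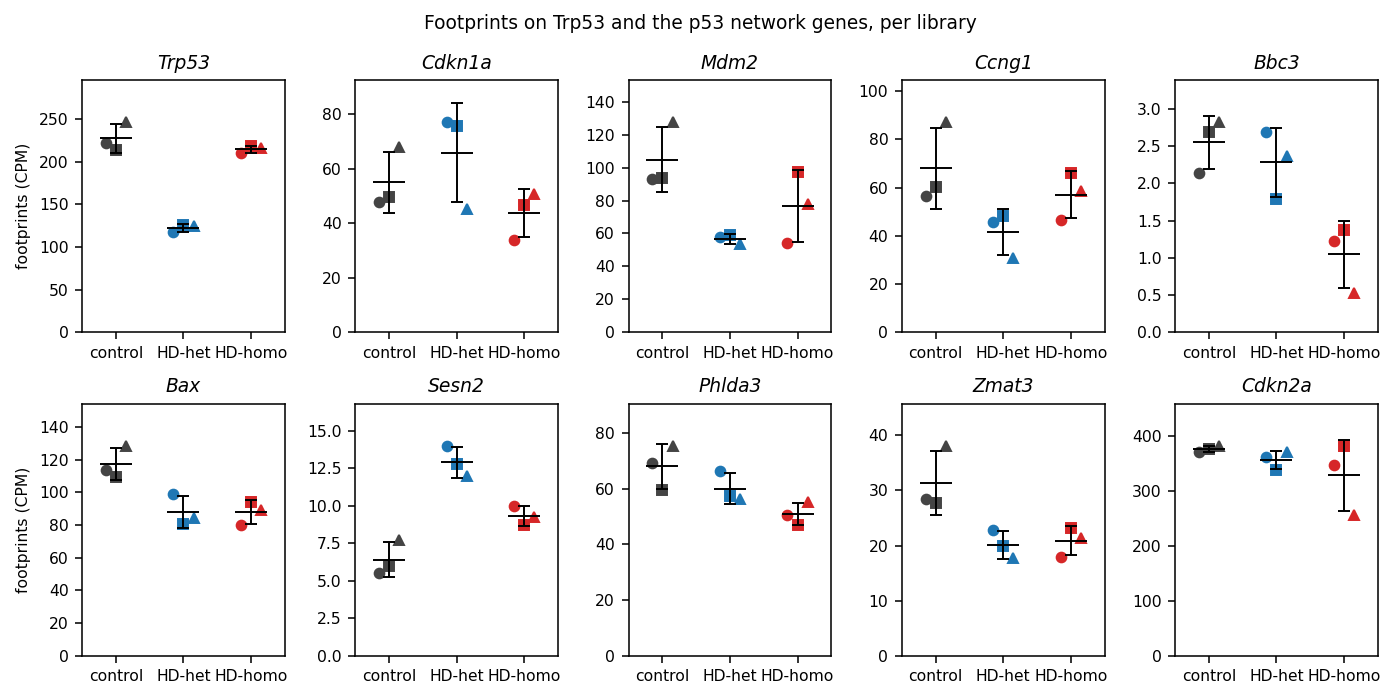
Footprints in CPM on the y axis (linear, from 0, with its own scale in each panel) for the 10 genes in the 3 lines on the x axis. Circles, squares and triangles are replicates 1, 2 and 3, and bars show the mean and SD of 3 libraries. The 3 HD-het libraries of Trp53 sit between 117 and 125 CPM, below all others.

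The gene for p53 itself carried fewer footprints in HD-het cells than in both other lines. Trp53 (chr11:69580348-69591873) was at 222, 213 and 246 CPM in the 3 control libraries, 117, 125 and 124 in HD-het and 209.6, 218 and 215 in HD-homo cells. The HD-het libraries did not overlap with either other line, whereas the HD-homo values overlapped with the lower control values. The difference between HD-het and control was -0.89 on the log2 scale (SE 0.08, adjusted p = 3.69e-06, edgeR's quasi-likelihood test), or 1.86-fold. HD-homo cells exceeded HD-het cells by 0.81 (SE 0.08, adjusted p = 3.92e-06), and their difference from control was -0.08 with a 95% interval from -0.25 to 0.09 (adjusted p = 0.404). The first of these differences ran from -0.95 to -0.84 over 17 alternative settings and stayed past the threshold in all 17. The replicates of a line varied little for this gene, with an SD of 0.07 on the log2 scale within lines, less than for all but 10.7% of the 7922 genes with a mean of at least 10 CPM.

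The genes whose log2 CPM followed Trp53 most closely over the 9 libraries were Impa1 (an inositol monophosphatase), Gtf2h5 (a subunit of the repair and transcription factor TFIIH) and Mrpl21 (a mitochondrial ribosomal protein), with Pearson r of 0.998, 0.997 and 0.995 among 7726 genes. These r values describe 9 points that share 3 lines. The processed pseudogene of Trp53 has no row in the table, so fragments that match both could have been counted at either place or dropped.

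Mdm2, the ligase that marks p53 for destruction, also fell in HD-het cells. Mdm2 (chr10:117688875-117710758) was at 93.1, 93.8 and 128 CPM for control, 57.7, 59.1 and 53.4 for HD-het and 54.2, 97.6 and 77.9 for HD-homo cells. All HD-het values lay below all control values, while the HD-homo libraries overlapped with both, 1 near the HD-het values, 1 among the control values and 1 between them. The difference of HD-het from control was -0.88 (SE 0.19, adjusted p = 0.00181, edgeR's quasi-likelihood test), close to that of Trp53. HD-homo against control gave -0.45 (SE 0.19, adjusted p = 0.0669) and HD-homo against HD-het 0.43 (adjusted p = 0.0616), and leaving out 1 library changed both calls. Without HD-homo replicate 2 the first became -0.67 (adjusted p = 0.00860), and without HD-homo replicate 1 the second became 0.63 (adjusted p = 0.00346). The second also passed without control replicate 3, at 0.43 (adjusted p = 0.0427). With all libraries kept, HD-homo against control passed with DESeq2 (-0.46, adjusted p = 0.0452) and in edgeR's test without the filter (-0.48, adjusted p = 0.0382). Over the 17 alternatives the adjusted p ran from 0.00860 to 0.243 for the first and from 0.00346 to 0.271 for the second.

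The ratio of Mdm2 to Trp53 density, taken per coding length in each library, was 0.366 ± 0.0418 for control, 0.371 ± 0.0260 for HD-het and 0.284 ± 0.0754 for HD-homo cells (SD, n = 3), with exact 2-sided permutation p-values of 0.9 for HD-het and 0.3 for HD-homo against control. Mdm4, the relative of Mdm2 that masks the activation domain of p53, did not pass the test against control in either mutant line. Mdm4 was at 6.95, 6.83 and 6.58 CPM for control, 7.67, 8.88 and 7.04 for HD-het and 6.31, 5.47 and 6.87 for HD-homo cells. Its difference from control was 0.22 in HD-het (adjusted p = 0.163) and -0.13 in HD-homo (adjusted p = 0.457), and HD-homo lay below HD-het by a log2 difference of -0.35 (adjusted p = 0.0346, edgeR's quasi-likelihood test), a call that held in 7 of 17 alternatives. The density of Mdm2 relative to Mdm4 was 15.5 ± 3.37 for control, 7.27 ± 0.518 for HD-het and 12.6 ± 4.77 for HD-homo cells (SD, n = 3). The HD-het ratios did not overlap with the control ratios, at an exact permutation p of 0.1, the smallest that 3 against 3 libraries allow. Of the 18 such ratio comparisons made, 8 reached this smallest p, and the Benjamini-Hochberg adjusted value was 0.225 for each of them.

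Cdkn2a (chr4:89274473-89294619), whose product p19Arf blocks Mdm2, was high in every line and showed no call between lines. It was at 370.2, 375 and 382 CPM for control, 361, 338 and 369 for HD-het and 346, 381 and 256 for HD-homo cells. The HD-het libraries lay just under the control libraries, and HD-homo replicate 3 lay far under all others. The differences from control were -0.08 for HD-het (95% interval -0.35 to 0.19, adjusted p = 0.607) and -0.20 for HD-homo (95% interval -0.47 to 0.07, adjusted p = 0.216, edgeR's quasi-likelihood test). Without HD-homo replicate 2 the latter was -0.32 (adjusted p = 0.0466, with 0.0466 to 0.691 over the 17 alternatives). The transcripts of p16Ink4a and p19Arf share an exon that is read in different frames, so counts per gene cannot separate the 2 proteins.

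Of the neighbours of Cdkn2a on chromosome 4, Mtap and Dmrta1 fell in HD-het cells. Mtap, which salvages methionine from methylthioadenosine, was at 324, 316 and 335 CPM for control, 151, 171 and 169 for HD-het and 283, 295 and 267 for HD-homo cells. All HD-het libraries were low, with a difference from control of -0.99 (SE 0.08, adjusted p = 2.05e-06, edgeR's quasi-likelihood test), whereas that of HD-homo was -0.21 (adjusted p = 0.0509) and passed the threshold in 8 of 17 alternatives. Cdkn2b, which encodes the CDK4 and CDK6 inhibitor p15Ink4b, averaged 33.7, 34.9 and 25.5 CPM, and its differences from control were 0.05 (adjusted p = 0.802) and -0.40 (adjusted p = 0.0678). The former passed with offsets for coding length, at 0.42 (adjusted p = 0.0443), and the latter in 3 of 17 alternatives, among them the fit without HD-homo replicate 2 at -0.52 (adjusted p = 0.0272). Dmrta1 was low, with 1.12 CPM in control and 0.235 in HD-het cells (-2.28, SE 0.38, adjusted p = 0.000373), and HD-homo cells had at most 3 counts per library, so that they were at least 10.1-fold lower than control (adjusted p = 3.15e-05).

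Cdkn1a encodes p21, the CDK inhibitor through which p53 arrests the cell cycle, and it showed no call against control in either mutant line. Cdkn1a (chr17:29090979-29100722) was at 47.8, 49.5 and 67.9 CPM for control, 77.1, 75.7 and 45.2 for HD-het and 34.0, 46.7 and 50.9 for HD-homo cells. The highest values were 2 HD-het libraries, but the remaining HD-het library (replicate 3) was lower than all control libraries, and every pair of lines overlapped. Against control the difference was 0.26 in HD-het (95% interval -0.21 to 0.74, adjusted p = 0.305) and -0.33 in HD-homo cells (95% interval -0.81 to 0.14, adjusted p = 0.237, edgeR's quasi-likelihood test). HD-homo against HD-het gave -0.60 (SE 0.22, adjusted p = 0.0294), which was lost without HD-het replicate 1, HD-het replicate 2 or HD-homo replicate 1 (adjusted p = 0.112, 0.112 and 0.110, with 0.00175 to 0.112 over the 17 alternatives). Per unit of Trp53 density, Cdkn1a stood at 0.528, 0.570 and 0.676 for control, 1.62, 1.48 and 0.891 for HD-het and 0.397, 0.525 and 0.580 for HD-homo cells. The HD-het ratios lay above all others, with an exact permutation p of 0.1 against control.

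The pattern of Cdkn1a over the 9 libraries was most like those of Casp8 (the initiator caspase of death receptors), Exoc4 (a subunit of the exocyst) and Stag1 (a cohesin subunit), with Pearson r of 0.948, 0.923 and 0.906 among 7726 genes. Trp53 itself had r = -0.44 with Cdkn1a. These are descriptions over 9 libraries of 3 lines.

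Ccng1 (chr11:40748552-40755309), the cyclin G1 gene whose product recruits a phosphatase to Mdm2, was lower in HD-het cells. It was at 56.5, 60.3 and 87.1 CPM for control, 45.7, 48.1 and 30.7 for HD-het and 46.7, 66.2 and 58.4 for HD-homo cells. HD-het values lay below control values, and HD-homo values overlapped with both. The difference of HD-het from control was -0.71 (SE 0.20, adjusted p = 0.0104, edgeR's quasi-likelihood test), that of HD-homo from control -0.25 (95% interval -0.69 to 0.19, adjusted p = 0.332), and the difference of HD-homo from HD-het was 0.45 with an adjusted p of 0.0655. This last value passed without control replicate 3 (0.46, adjusted p = 0.034) and without HD-homo replicate 1 (0.58, adjusted p = 0.0324), with adjusted p from 0.0324 to 0.22 over the 17 alternatives.

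Zmat3 (chr3:32334792-32365665), an RNA-binding target of p53 that acts on splicing, fell in both mutant lines. It was at 28.5, 27.7 and 38.1 CPM for control, 22.8, 19.9 and 17.7 for HD-het and 18.0, 23.2 and 21.4 for HD-homo cells. All 6 mutant libraries lay below all control libraries and the mutant lines overlapped. The differences from control were -0.64 (SE 0.15, adjusted p = 0.00320) and -0.59 (SE 0.15, adjusted p = 0.00706, edgeR's quasi-likelihood test), and both held in all 17 alternatives. The same 3 control libraries served both comparisons. A long noncoding RNA gene, 4930429B21Rik, overlaps Zmat3, and the use of strand in counting is not given in the sources used here.

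Of the genes that start apoptosis, Bax fell in both mutant lines and Bbc3 fell in HD-homo cells. Bax (chr7:45461695-45466903), which forms pores in the outer mitochondrial membrane, was at 114, 109.8 and 129 CPM for control, 99.1, 80.9 and 84.1 for HD-het and 80.2, 94.3 and 89.4 for HD-homo cells. The control libraries were the 3 highest. The difference was -0.42 in both comparisons with control (SE 0.10 in each, adjusted p = 0.00464 and 0.00657, edgeR's quasi-likelihood test), and between the mutant lines it was -0.00089 with a 95% interval from -0.23 to 0.23. With offsets for coding length the HD-het difference was -0.20 (adjusted p = 0.0993, the highest of the 17 alternatives).

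Bbc3 (chr7:16308398-16318334) encodes PUMA, a BH3-only protein that neutralizes the survival members of the BCL2 family, and it had the lowest footprint density of the 10 genes. It was at 2.14, 2.69 and 2.82 CPM for control, 2.69, 1.79 and 2.36 for HD-het and 1.22, 1.38 and 0.532 for HD-homo cells. The HD-homo libraries, with 44, 36 and 12 counts, lay below all others, and the other lines overlapped. HD-homo differed from control by -1.26 (SE 0.29, adjusted p = 0.00422) and from HD-het by -1.08 (SE 0.29, adjusted p = 0.00669, edgeR's quasi-likelihood test), and both held in all 17 alternatives. HD-het differed from control by -0.18 with a 95% interval from -0.76 to 0.41.

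Pmaip1, which encodes NOXA, another BH3-only protein, rose in HD-het cells. It was at 19.9, 19.7 and 18.6 CPM for control, 72.8, 64.2 and 63.9 for HD-het and 18.8, 28.1 and 31.8 for HD-homo cells. All HD-het libraries lay above all others, with a 3.45-fold difference from control, or 1.79 on the log2 scale (SE 0.16, adjusted p = 4.51e-06, edgeR's quasi-likelihood test). The HD-homo difference of 0.43 (adjusted p = 0.0469) held in 5 of 17 alternatives and, of the 9 fits that left out a library, only in that without HD-homo replicate 1. Pmaip1 is also known as a target of the stress factor ATF4, as is Sesn2, and the part of ATF4 in these values was not tested.

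Sesn2 (chr4:132492804-132510456), which encodes sestrin 2, a leucine sensor that restrains the growth kinase mTORC1, was the only one of the 10 genes to rise over control in both mutant lines. It was at 5.54, 5.97 and 7.71 CPM for control, 14.0, 12.8 and 12.0 for HD-het and 10.01, 8.72 and 9.22 for HD-homo cells. The 3 lines did not overlap, with HD-het highest and HD-homo between. The differences from control were 1.01 (SE 0.14, adjusted p = 8.03e-05) in HD-het and 0.55 (SE 0.14, adjusted p = 0.00760) in HD-homo cells, and HD-homo was below HD-het by a difference of -0.47 (SE 0.13, adjusted p = 0.00908, edgeR's quasi-likelihood test). Its relative Sesn1 had fewer footprints in HD-het cells, at 4.82 against 11.8 CPM in control, a difference of -1.31 (SE 0.15, adjusted p = 2.50e-05).

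Phlda3 (chr1:135766085-135769134), whose product competes with the kinase AKT for membrane lipids, fell in HD-homo cells. It was at 69.3, 59.3 and 75.4 CPM for control, 66.3, 57.4 and 56.2 for HD-het and 50.7, 46.9 and 55.1 for HD-homo cells. The HD-homo libraries were the 3 lowest. HD-homo differed from control by -0.42 (SE 0.11, adjusted p = 0.00877, edgeR's quasi-likelihood test), and HD-het by -0.18 (95% interval -0.42 to 0.06, adjusted p = 0.169). HD-homo against HD-het gave -0.24 (adjusted p = 0.0739).

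**Figure D2:**
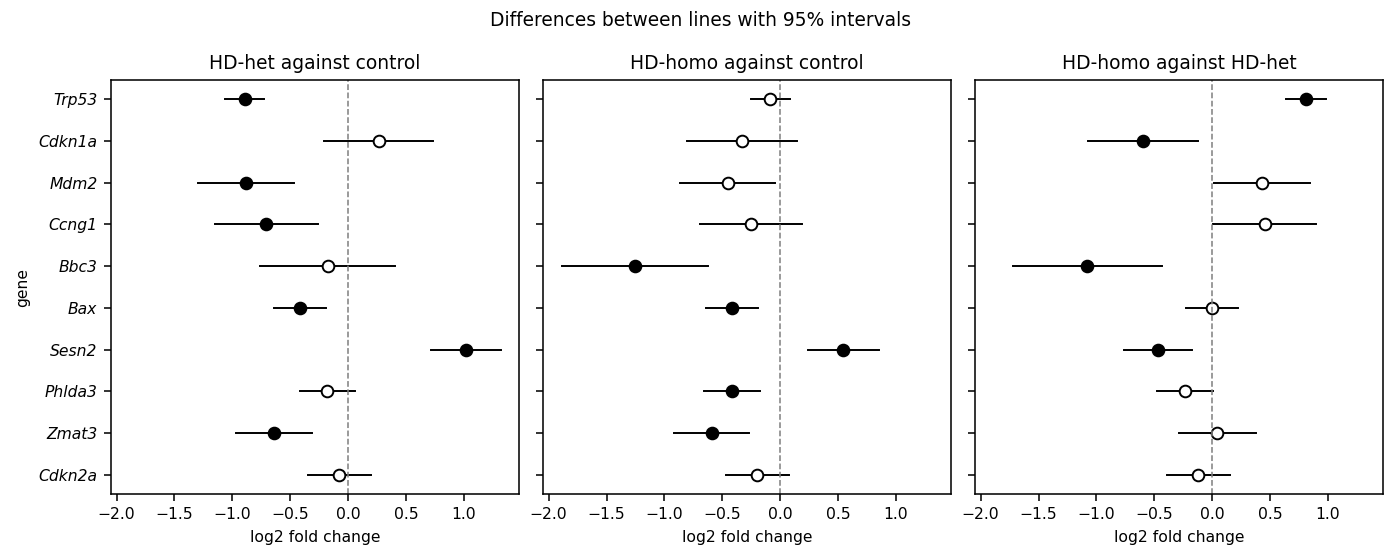
Fitted log2 fold change on the x axis of the 10 genes on the y axis in the 3 comparisons, with 95% intervals that are not adjusted for the number of genes. Filled points passed an adjusted p of 0.05 in edgeR's quasi-likelihood test and open points did not. Sesn2 is the only filled point to the right of 0 in both comparisons with control.

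In HD-het against control, 1 of the 10 genes was called higher (31.0% of all genes tested were), 5 were called lower (29.1% of all genes) and 4 were not called. In HD-homo against control, 1 was called higher (23.3% of all genes), 4 lower (22.3%) and 5 were not called. In HD-homo against HD-het, 1 was called higher (34.6%), 3 lower (32.8%) and 6 were not called. The lines did not overlap for 7, 5 and 4 of the 10 genes in these comparisons, against 71.2%, 55.5% and 69.5% of all genes tested. The median log2 difference of the 10 genes was -0.30, -0.37 and -0.06, beside 0.02 for all genes tested in each comparison. So large a share of all genes passed the test that the number of calls among the 10 genes is not a result about them, and the comparisons share libraries, so their counts are not independent.

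The replicates of a line deviated from their mean together for several of the target genes, a pattern that was chosen after the values were seen and has no test here. Control replicate 3 was the highest control library for all 10 genes, while it was the highest for 38.7% of all genes tested. HD-het replicate 3 was the lowest HD-het library for 6 of them (33.7% of all genes) and HD-homo replicate 1 the lowest HD-homo library for 6 (33.0%). The SD within lines was 0.35 on the log2 scale for Cdkn1a, 0.32 for Ccng1, 0.29 for Mdm2 and 0.21 for Zmat3, against a median of 0.13 for the 7922 genes with a mean of at least 10 CPM. Cdkn1a, Ccng1 and Mdm2 varied more than 96.0%, 94.7% and 93.0% of these genes.

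Over the 9 deviations, Ccng1 had r = 0.94 with Cdkn1a and ranked 8 of 7921 genes, Zmat3 had r = 0.85 and ranked 70 and Mdm2 had r = 0.70 and ranked 360. The deviations of Trp53 were small, with r = 0.34 and rank 1978, and those of Cdkn2a had r = -0.31. The points share libraries and their preparation, and each line contributes deviations that sum to 0, so these correlations are descriptions. The part of depth in them was not tested. Control replicates 1, 2 and 3 held 26504463, 41888701 and 25927603 counts, and 6 of the 10 genes were lowest in control replicate 1. The same replicates of HD-het held 26707175, 36470422 and 22781306 counts, and those of HD-homo 35230924, 24853032 and 22504543.

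**Figure D3:**
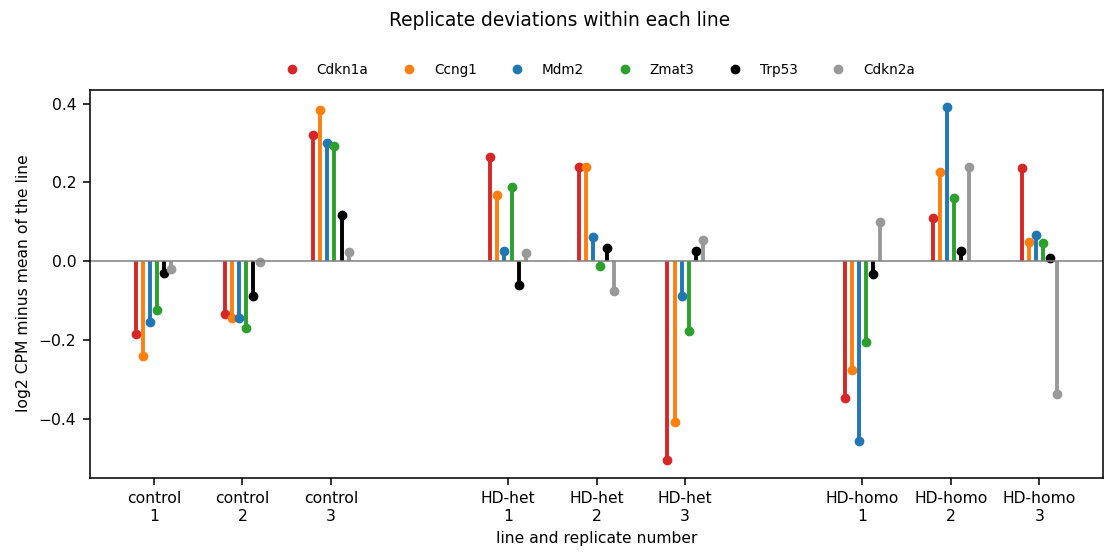
Difference of log2 CPM from the mean of the line on the y axis for Cdkn1a, Ccng1, Mdm2, Zmat3, Trp53 and Cdkn2a in each of the 9 libraries on the x axis. Cdkn1a, Ccng1, Mdm2 and Zmat3 lie above their line's mean in control replicate 3 and below it in HD-het replicate 3 and HD-homo replicate 1, whereas Trp53 stays within 0.12 of it.

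Beyond the core genes, 39 of 40 further p53 targets were tested, and they split in both directions. HD-het cells had 11 higher and 12 lower than control with a median of -0.08, in HD-homo against control 9 rose and 10 fell with a median of -0.13, and in HD-homo against HD-het 12 rose and 15 fell with a median of -0.01. These were 28.2% and 30.8% of the 39 genes for HD-het against control, beside 31.0% and 29.1% of all genes tested, 23.1% and 25.6% for HD-homo against control, beside 23.3% and 22.3%, and 30.8% and 38.5% for HD-homo against HD-het, beside 34.6% and 32.8%. The lines did not overlap for 66.7%, 48.7% and 66.7% of the 39 genes, beside 71.2%, 55.5% and 69.5% of all genes tested. Among those with at least 10 CPM in the higher line, Fas, the death receptor, rose in HD-het cells from 3.90 to 13.9 CPM, a difference of 1.85 (SE 0.18, adjusted p = 6.82e-06, edgeR's quasi-likelihood test), next to Pmaip1. The mitotic regulator Gtse1 fell in HD-het cells from 96.5 to 53.01 CPM (-0.87, SE 0.11), next to Sesn1. Fas also rose in HD-homo against control, by 1.02 (adjusted p = 0.000725, edgeR's quasi-likelihood test).

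Among the targets with at least 10 CPM in the higher line, the largest rises in HD-homo cells over control were those of Cd80, a costimulatory ligand, from 1.85 to 10.3 CPM (2.48, SE 0.20, adjusted p = 1.63e-06), and of Gadd45a, a stress sensor, from 10.9 to 16.4 CPM (0.58, SE 0.17, adjusted p = 0.0155). The call of Gadd45a was lost without HD-homo replicate 3. Both genes also rose in HD-het against control, Cd80 by 2.20 (adjusted p = 4.73e-06) and Gadd45a by 1.73 (adjusted p = 7.49e-06, edgeR's quasi-likelihood test). Below 10 CPM, and chosen after its values were seen, the stress cytokine gene Gdf15 was at 0.141 CPM for control, 0.359 for HD-het and 4.41 for HD-homo cells. HD-homo differed from control by 4.95 (SE 0.35, adjusted p = 6.43e-07, edgeR's quasi-likelihood test). The control mean lay near the floor of 3 counts, so the size of this difference is uncertain. Other targets below 10 CPM went both ways in this comparison, among them Dram1 (2.40) and Ddb2 (1.45) up and Jag2 (-2.57) and Trp53i11 (-1.87) down. Perp, a desmosome protein linked to apoptosis, fell in HD-homo cells from 73.6 to 30.2 CPM (-1.28, SE 0.11) and Tob1, an antiproliferative protein, from 33.7 to 16.4 CPM (-1.04, SE 0.17). In HD-het against control Tob1 also fell (-0.52), and Perp was not called (0.09). Between the mutant lines the exonuclease gene Aen was higher in HD-homo cells by 0.94 and Sesn1 by 1.34, and Perp and Pmaip1 were lower by log2 differences of -1.37 and -1.36.

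**Figure D4:**
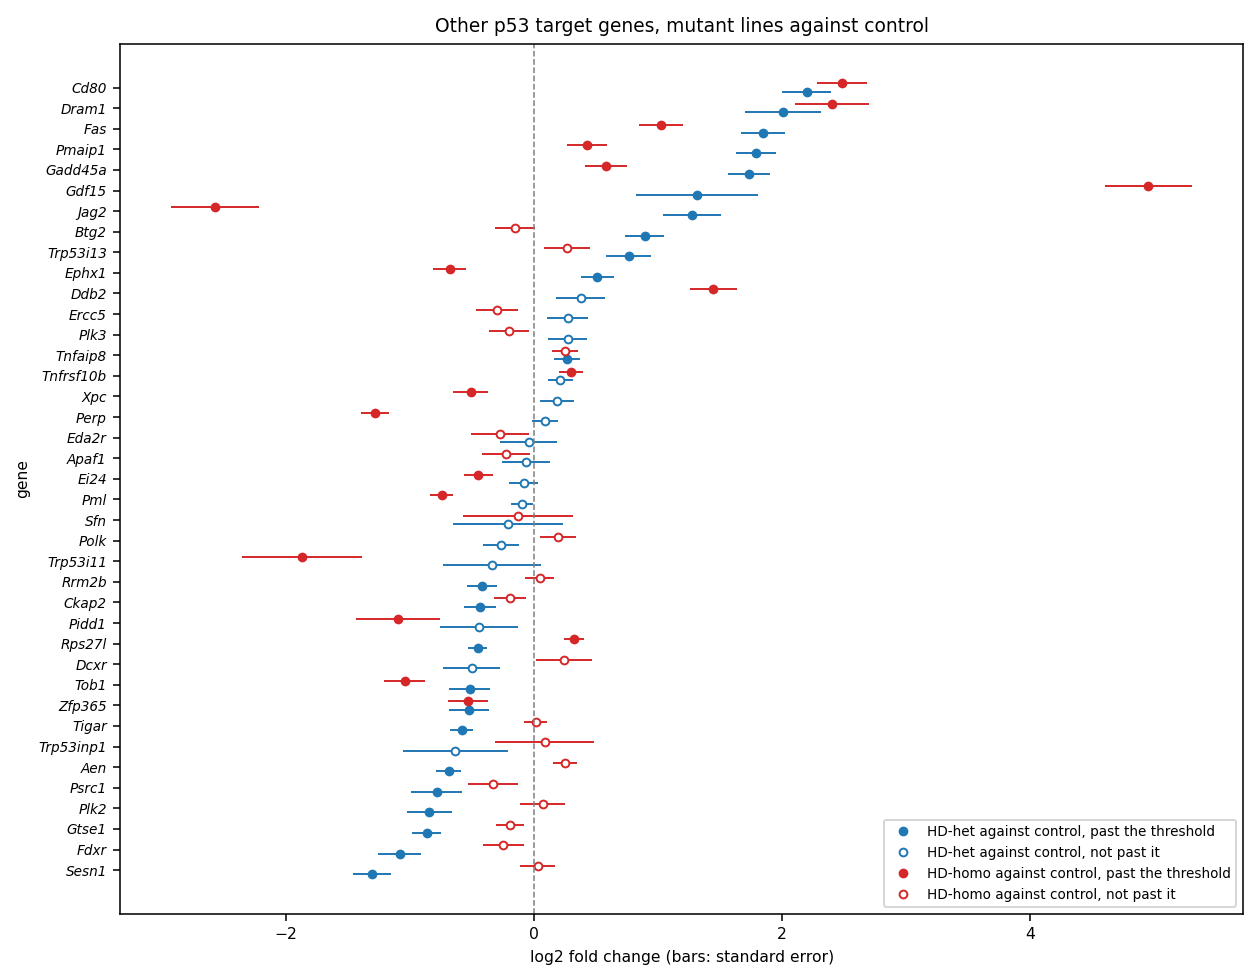
Log2 fold change against control with its standard error on the x axis for 39 further p53 target genes on the y axis, ordered by the difference in HD-het cells (blue) and with that in HD-homo cells (red). Filled points passed an adjusted p of 0.05. In HD-het cells 11 filled points lie to the right of 0 and 12 to the left, and both comparisons use the same control libraries.

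Of 30 regulators of p53, 29 were tested. Against control, HD-het cells had 5 higher and 11 lower (median -0.18), in HD-homo against control 8 rose and 7 fell (median -0.01) and in HD-homo against HD-het 12 rose and 5 fell (median 0.07). Higher and lower genes made up 17.2% and 37.9% of the 29 in HD-het against control (31.0% and 29.1% of all genes tested), 27.6% and 24.1% in HD-homo against control (23.3% and 22.3%) and 41.4% and 17.2% in HD-homo against HD-het (34.6% and 32.8%). Without control replicate 2, 4 in place of 7 fell in HD-homo cells. The nucleolar proteins nucleophosmin and nucleolin, which bind Mdm2 or p53 under ribosomal stress, fell in HD-het cells, Npm1 from 2955 to 1416 CPM (-1.06, SE 0.10, adjusted p = 4.42e-06) and Ncl from 3834 to 2309 CPM (-0.73, SE 0.10, adjusted p = 6.10e-05, edgeR's quasi-likelihood test). Npm1 and Rpl11, the ribosomal protein that binds Mdm2, had more footprints in HD-homo cells, by 1.23 and 0.96 relative to HD-het. The p53-binding protein genes Trp53bp1 and Trp53bp2 were higher in HD-het cells than in control by 0.50 and 0.44 (with offsets for coding length Trp53bp1 was at 0.21, adjusted p = 0.0846), and in HD-homo cells Trp53bp1 was higher by 0.52 and Trp53bp2 lower (-0.51). Hipk2, a kinase that phosphorylates p53, fell in HD-homo cells from 12.1 to 5.36 CPM (-1.18, SE 0.14), and Twist1, a repressor of p53 activity, rose from 12.3 to 23.0 CPM (0.90, SE 0.16). Against HD-het cells, HD-homo cells were lower for Hipk2 (-0.95) and Trp53bp2 (-0.95).

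Beside Bax and Bbc3, 17 of 19 genes of the BCL2 family and the apoptosome were tested. For HD-het against control 3 rose and 9 fell (median -0.32), in HD-homo against control 2 rose and 5 fell (median 0.05) and in HD-homo against HD-het 7 rose and 5 fell (median -0.04). As shares of the 17 genes, 17.6% were higher and 52.9% lower in HD-het against control (all genes tested, 31.0% and 29.1%), 11.8% and 29.4% in HD-homo against control (23.3% and 22.3%) and 41.2% and 29.4% in HD-homo against HD-het (34.6% and 32.8%). In HD-het cells the initiator caspase gene Casp9 rose from 5.48 to 10.04 CPM (0.88, SE 0.15) and Xiap, a caspase inhibitor, by 0.34 (lost without control replicate 1, HD-het replicate 1 or HD-het replicate 2), while Bad (-0.63) fell. With offsets for coding length, 4 of the 17 in place of 9 were lower. In HD-homo against control, at most 1 of the 17 rose when any library was left out. In HD-homo cells Bcl2l1, the gene of the survival protein BCL-XL, was lower (-0.35, adjusted p = 0.0348) and Diablo, an antagonist of caspase inhibitors, higher (0.33, adjusted p = 0.0369, edgeR's quasi-likelihood test), and these calls were lost in 5 and 6 of the 9 fits that left out a library, all but the fit without HD-het replicate 3 for Diablo being without a control library or without HD-homo replicate 1 or 3. HD-homo cells were lower than HD-het cells for Bok (-0.97) and Casp9 (-0.45, lost without HD-het replicate 1, HD-het replicate 2 or HD-homo replicate 3), and 3 in place of 5 fell without HD-het replicate 2.

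A list of 24 genes of the cell cycle machinery around p21 and p16Ink4a held cyclins, cyclin-dependent kinases, other CDK inhibitors, retinoblastoma and E2F family genes, Pcna and Cdc25a, and all 24 were tested. In HD-het against control 9 rose and 13 fell (median -0.30), in HD-homo against control 5 rose and 5 fell (median -0.01) and in HD-homo against HD-het 12 rose and 8 fell (median 0.31). The higher and lower shares of the 24 genes were 37.5% and 54.2% in HD-het against control (31.0% and 29.1% of all genes tested), 20.8% and 20.8% in HD-homo against control (23.3% and 22.3%) and 50.0% and 33.3% in HD-homo against HD-het (34.6% and 32.8%). In HD-homo against control 3 in place of 5 rose without HD-homo replicate 1 or control replicate 1, and 3 in place of 5 fell without HD-homo replicate 3 or without either control replicate 2 or 3. The cyclin D1 gene Ccnd1 was at 458 ± 65.1 CPM for control, 78.2 ± 1.49 for HD-het and 159 ± 34.4 for HD-homo cells (SD, n = 3). Its differences from control were -2.55 (SE 0.16, adjusted p = 3.15e-07) and -1.53 (SE 0.15, adjusted p = 9.29e-06, edgeR's quasi-likelihood test). Ccnd2 averaged 91.3 CPM for control, 121 for HD-het and 23.0 for HD-homo cells, and fell in HD-homo cells against control by 1.98 on the log2 scale and against HD-het by 2.39. In HD-het cells Cdk6, a partner of both cyclins, fell from 32.7 to 14.4 CPM (-1.18), while Cdkn1b, which encodes the inhibitor p27, rose from 46.2 to 80.7 CPM (0.80) and E2f1, a factor held by the retinoblastoma protein, from 8.68 to 19.2 CPM (1.15). In HD-homo cells Rbl2 (0.65) and Ccnb1 (0.36) rose over control. Against HD-het cells, HD-homo cells were higher for Cdk6 (1.52) and Ccnd1 (1.02) and lower for E2f1 (-1.29).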

How the data were processed

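Per the labels, ribosome footprints were isolated from 3 striatal lines with 3 libraries each. The authors deposited raw counts per gene symbol. The submitters' processing notes name cutadapt, Bowtie 1.0.1 and mm10; the counting program, annotation and use of strand are not given in the sources used here. No column was left unmapped. Of the 36410 rows, 26 bear a symbol turned into a date (0.252% of counts) and were not named.

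Counts were fitted with edgeR 4.0.16 (limma 3.58.1, R 4.3.3) by quasi-likelihood F test, with TMM factors, filterByExpr by group and group means over all 9 libraries. Benjamini-Hochberg adjustment ran over 12678 genes and the threshold was 0.05. CPM used TMM-scaled totals. A count of 3 (0.0716 to 0.133 CPM, by library) served as floor, which covers counting error only. Coding length was the longest coding sequence of GENCODE release M21 on GRCm38, since RefSeq proteins were not used here, and was known for 97.0% of tested genes. Scripts were tested on simulated counts.

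The 10 genes, the lists and the tests were chosen with earlier results of these data known. Named beside them were Htt, Mdm4, Pmaip1, the Cdkn2a neighbours, per list and comparison the 2 largest rises and the 2 largest falls among called genes with a mean of 10 CPM or more in 1 of the lines compared, and the 3 genes most like Trp53 and Cdkn1a. Some genes that this rule names are not reported here. Alternatives were RLE factors, total counts, DESeq2 1.42.0, no filter, 10 counts in every library, only the 6 libraries compared, a replicate block, offsets for coding length (loess, span 0.5) and leaving out each library.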

Additional observations from a re-analysis of the deposited data

How the results depend on the processing

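Over 30 comparisons of single genes and 17 alternatives, 474 of 510 values kept their direction and their side of the threshold, 5 lost a call, 16 gained one and 15 changed sign, the latter all for genes without a call. Offsets for coding length moved most. They gave 2 genes called higher in HD-het against control, with Cdkn1a at 0.56 (adjusted p = 0.0368), and 6 called lower in HD-homo against HD-het, with Bax at -0.28, Phlda3 at -0.71 and Cdkn2a at -0.46. In HD-het against control they turned Bbc3 to 0.039, Phlda3 to 0.20 and Cdkn2a to 0.19, and in HD-homo against HD-het Zmat3 to -0.092. In HD-homo against HD-het, 3 genes were called higher with total counts and without the filter (adding Mdm2 and Ccng1), and between 1 and 3 when a library was left out. There Bax was at 0.078 with total counts, 0.013 without the filter and between -0.058 and 0.091 without a library, Zmat3 between -0.036 and 0.15 and Cdkn2a between -0.24 and 0.032. In HD-het against control Cdkn2b was at -0.00133 with total counts and between -0.059 and 0.12 without a library, and offsets for coding length gave 0.42 (adjusted p = 0.0443). The cause of these shifts was not tested.

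Of 9 same-number pairs of libraries, 1 had an r of deviations from the line means over 0.1 (range -0.36 to 0.17). A pair with different numbers, control replicate 2 and HD-homo replicate 1, reached 0.38, so an r over 0.1 does not show pairing by number. Of the 9 libraries, 3 correlated best with their own number. With the replicate number as a block, Bax in HD-homo against HD-het was at 0.000359, every count of the 10 genes stayed, and all genes called in HD-het against control were 3825 higher and 3638 lower against 3931 and 3689.

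Bbc3 rests on 12 to 113 counts per library, and with 3 libraries per line the interval of Cdkn1a in HD-het against control ran from -0.21 to 0.74 on the log2 scale.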
